A study of Mus musculus with 21 samples.

Results

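In mouse embryonic fibroblasts (MEFs), 10 genes that drive or brake passage through G1 were followed: the D-type cyclins Ccnd1, Ccnd2 and Ccnd3, their kinases Cdk4 and Cdk6, the E-type cyclins Ccne1 and Ccne2, and the inhibitors Cdkn1b, Cdkn2a and Cdkn2b. They were taken by name, as 10 of the 41608 genes of the deposited count table, with no threshold on a measured value. The study asked how HSF1, the transcription factor that switches on heat-shock genes, bears on the transcriptional program of c-MYC, a factor that promotes growth. RNA was measured in immortalized MEFs stably expressing V5-tagged GCN5 (a histone acetyltransferase, gene Kat2a) or LacZ as its control, 2 days after transfection with 10 nM siRNA against Hsf1 (siHsf1) or control siRNA (siControl). The 4 groups were siHsf1 LacZ, siControl LacZ, siHsf1 GCN5 and siControl GCN5, with 3 libraries each; the labels do not say whether a line is 1 clone or whether the triplicates were separate cultures, so that p-values measure the spread between these libraries. Sites of c-MYC were mapped by CUT&RUN, which releases DNA next to antibody-bound proteins with a tethered nuclease, in MEFs given 4-hydroxytamoxifen for 7 days to delete Hsf1 (CKO) and in MEFs given ethanol for 7 days (WT). The labels name an antibody to c-Myc and N-Myc, 2 libraries per genotype and 1 IgG control on mixed cells, and each genotype has a single peak list here. The other 4 of the 21 samples were transfected with 100 nM siRNA and are not analysed here.

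In G1, D-type cyclins bind CDK4 or CDK6, and E-type cyclins bind CDK2. These kinases phosphorylate the retinoblastoma protein, which then releases E2F factors that switch on genes of DNA replication. The INK4 proteins, among them those made from Cdkn2a and Cdkn2b, bind CDK4 and CDK6 and keep the D-type cyclins off. By contrast p27, the product of Cdkn1b, binds cyclin-CDK complexes, with cyclin E-CDK2 as its best known target. Cdkn2a also gives rise to p19Arf, which acts through p53, and its induction during culture is a hallmark of senescing MEFs. D-type cyclins respond to growth factors, and several genes of this group, Cdk4 and Ccnd2 among them, are known as c-MYC targets.

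Total gene counts ran from 7.22 to 8.16 M (mega) per LacZ library and from 3.69 to 4.27 M per GCN5 library, and effects of depth and line therefore cannot be told apart. All 10 genes passed the filter on low counts with 12187 genes in all, and the lowest count of any of them in any library was 54, for Cdkn1b. Libraries were scaled in 2 ways throughout. The first divides by the summed counts of 23 ERCC spike-in transcripts of subgroup B, whose amount is the same in both ERCC mixes. Their share of the counts ran from 0.142% to 0.356% over the libraries and differed within groups, and the biological coefficient of variation was 0.274 with it, against 0.089 with the second scaling, TMM, which sets the bulk of genes to no change. Hsf1 itself had 57.6, 55.4 and 47.8 counts per megacount of the library (CPM, TMM-scaled) in siHsf1 LacZ, against 128, 128 and 134 CPM in siControl LacZ libraries, and 67.9, 74.5 and 73.0 CPM in siHsf1 GCN5, against 137, 121 and 138 CPM in siControl GCN5 libraries. It fell by 1.28 ± 0.08 (SE) in the LacZ and by 0.88 ± 0.08 in the GCN5 line on the log2 scale with TMM scaling (edgeR adjusted p = 2.55e-12 and 8.19e-07). With spike-in scaling the log2 fold change of Hsf1 was -1.65 ± 0.33 in LacZ MEFs (edgeR adjusted p = 0.00012). In GCN5 MEFs it was -0.93 ± 0.32 with that scaling, and Hsf1 itself was not called. Kat2a had 233 to 262 CPM in siControl GCN5 and 215 to 220 CPM in siControl LacZ libraries (log2 fold change 0.19 ± 0.06 SE with TMM scaling, edgeR adjusted p = 0.0506; -0.20 ± 0.32 with spike-in scaling, adjusted p = 0.639). Under siHsf1 it was higher in GCN5 than in LacZ MEFs by 1.00 ± 0.06 with TMM scaling (edgeR adjusted p = 3.55e-12), and by 0.93 ± 0.32 with spike-in scaling, which did not pass (adjusted p = 0.0667). With siHsf1 Kat2a fell in LacZ MEFs by 0.80 ± 0.06 with TMM and by 1.17 ± 0.32 with spike-in scaling (edgeR adjusted p = 1.74e-10 and 0.0115), and its difference in GCN5 MEFs was 0.01 ± 0.06 with TMM scaling (edgeR adjusted p = 0.987). Whether reads of the transgene were counted under Kat2a is not given in the sources used here. Summed fibroblast markers (8 genes, Thy1 at 0 in 3 groups) reached 6287 to 7047 CPM in siHsf1 LacZ, 4809 to 5075 CPM in siControl LacZ, 5619 to 5860 CPM in siHsf1 GCN5 and 5725 to 5909 CPM in siControl GCN5 libraries. Haematopoietic markers (6 genes) summed to 11.98 to 14.3 CPM in siHsf1 LacZ and 6.69 to 8.65 CPM in siControl LacZ libraries with Ptprc, Adgre1 and Itgam at 0 in both, and to 4.56 to 6.32 CPM in siHsf1 GCN5 and 5.42 to 6.63 CPM in siControl GCN5 libraries. Epithelial markers (5 genes, Epcam at 0) summed to 44.1 to 55.2 CPM in siHsf1 LacZ, 46.7 to 62.5 CPM in siControl LacZ, 33.0 to 36.7 CPM in siHsf1 GCN5 and 31.7 to 41.0 CPM in siControl GCN5 libraries. Endothelial markers (4 genes) reached at most 1.40 CPM, and skeletal muscle markers (4 genes, Myod1 and Myog at 0) at most 7.07 CPM. The part of these marker differences in the results below was not tested.

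The promoters of the kinases carry the canonical E-box CACGTG, the 6-base site that c-MYC binds as a dimer with MAX. They are shown here as the only promoter entries of these genes with that site. Both kinase genes had c-MYC peaks in both genotypes, as did 6 of the 10 genes in all. The promoters at the downstream starts of Ccnd3 and Cdkn2a had peaks in both genotypes without CACGTG. Sequences are from the RefSeq promoter table for GRCm38.p6, which gives 250 bases before and 50 bases from each start and holds 9 entries for 7 of the 10 genes. The first, for Cdk4, is chr10:127063285-127063584 on the plus strand, the second, for Cdk6, is chr5:3343643-3343942 on the plus strand, and the third is chr17:47593217-47593516 on the plus strand, at the downstream start of Ccnd3, the cyclin gene with the largest response to siHsf1. Capitals mark CACGTG, which reads the same on both strands.
Cdk4: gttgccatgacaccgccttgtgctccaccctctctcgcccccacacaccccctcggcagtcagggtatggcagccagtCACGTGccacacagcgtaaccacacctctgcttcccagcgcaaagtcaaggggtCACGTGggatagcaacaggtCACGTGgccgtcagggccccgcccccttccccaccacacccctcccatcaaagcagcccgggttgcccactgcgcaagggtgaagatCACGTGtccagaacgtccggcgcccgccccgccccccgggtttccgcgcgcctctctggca
Cdk6: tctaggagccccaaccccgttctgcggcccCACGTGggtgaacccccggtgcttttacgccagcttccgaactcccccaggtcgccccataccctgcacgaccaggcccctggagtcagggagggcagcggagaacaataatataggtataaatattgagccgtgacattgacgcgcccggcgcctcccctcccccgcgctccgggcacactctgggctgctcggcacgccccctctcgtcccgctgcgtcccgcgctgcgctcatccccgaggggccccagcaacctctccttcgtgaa
Ccnd3, downstream start: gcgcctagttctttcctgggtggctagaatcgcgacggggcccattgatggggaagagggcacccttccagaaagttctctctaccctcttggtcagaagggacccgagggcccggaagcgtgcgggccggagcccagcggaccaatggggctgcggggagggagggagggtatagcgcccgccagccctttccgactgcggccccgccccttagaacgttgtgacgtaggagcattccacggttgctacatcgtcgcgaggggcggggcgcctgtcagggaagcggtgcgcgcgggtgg
The Cdk4 promoter held CACGTG 4 times, with the first base at -172, -118, -98 and -11 from the start, whose own base counts as 0, and the Cdk6 promoter held it once, at -220. None of the other 7 promoter entries of these genes held it, whereas 7.15% of all 32851 promoters of this length do. The heat-shock element half-site pairs GAANNTTC and TTCNNGAA, searched on both strands, were in 7.86% and 8.52% of all promoters. The downstream Ccnd3 promoter held each of them once, at -180 and -185, overlapping each other. These matches share the bases gaa in a single stretch, ttccagaaagttc, and the share of promoters with such a joined form was not counted. The Cdk6 promoter held TTCNNGAA once, at 42. A match describes these letters only.

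**Figure D1:**
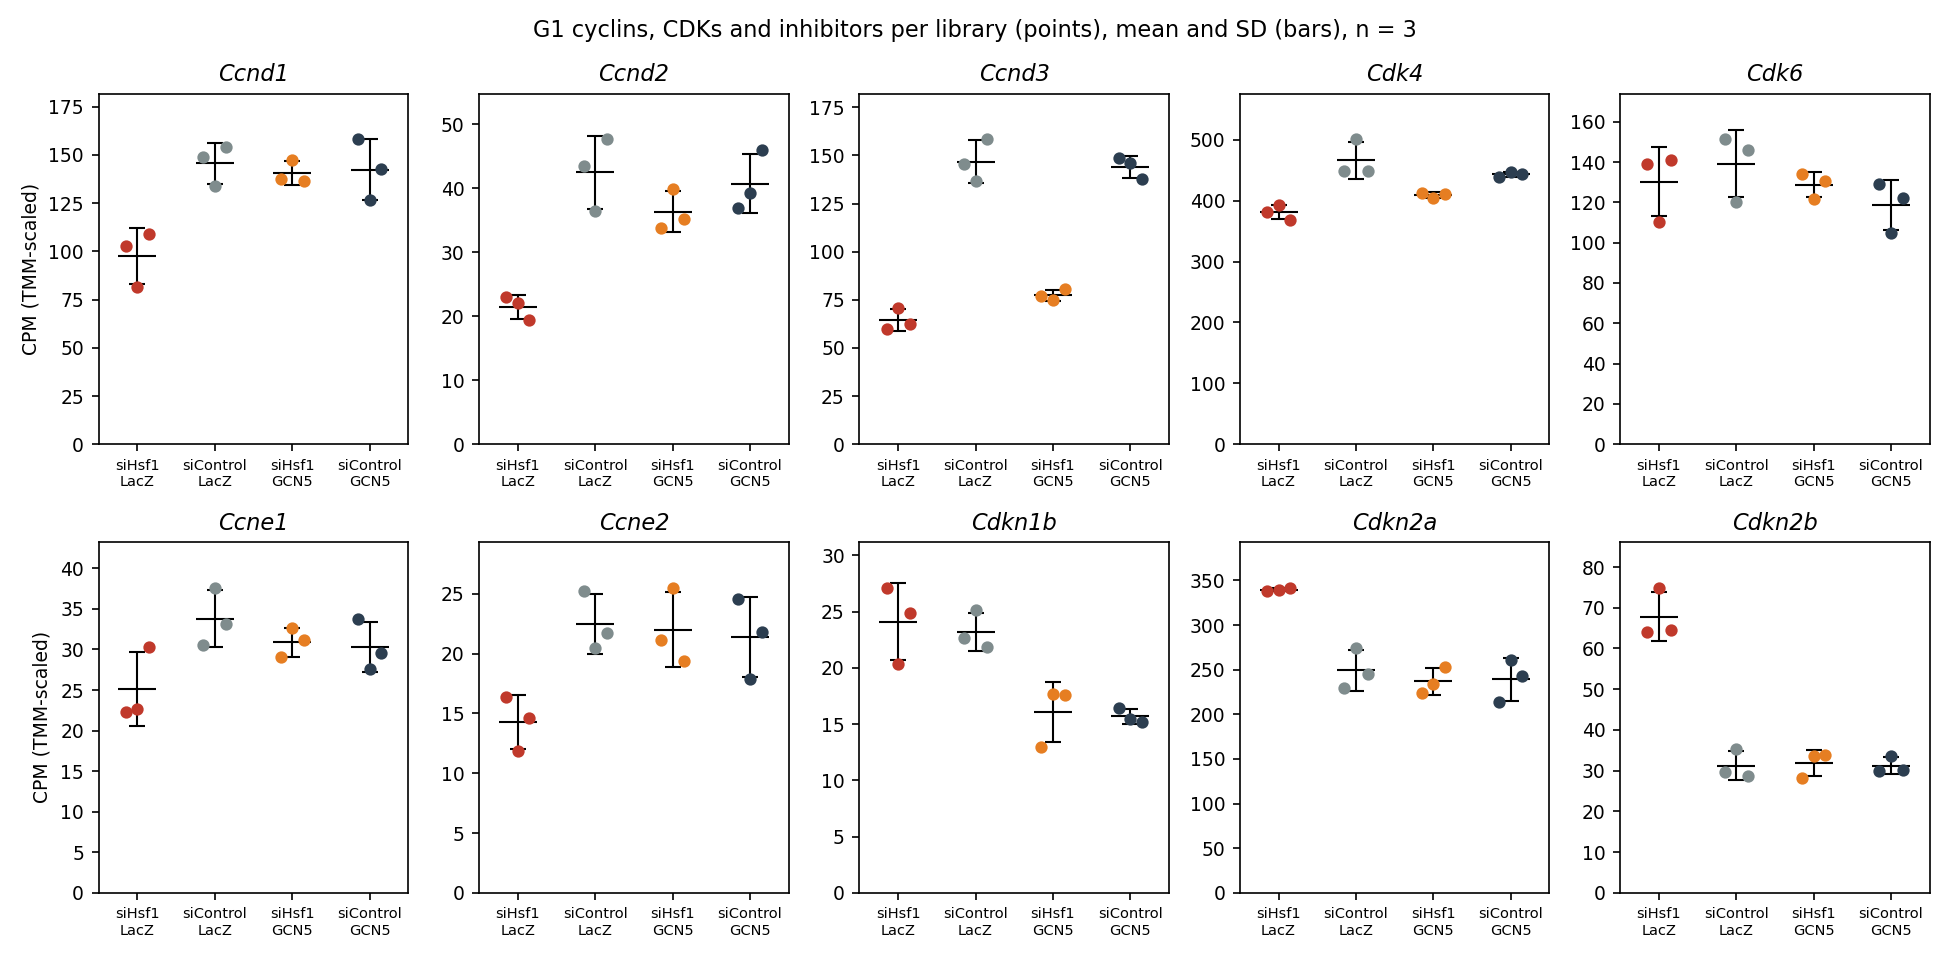
Each panel shows 1 gene, with CPM (TMM-scaled) on a linear axis from 0 for the siHsf1 LacZ, siControl LacZ, siHsf1 GCN5 and siControl GCN5 libraries (points), and the mean and SD of 3 libraries (bars). Ccnd3 sits lower in the siHsf1 libraries of both lines, at 60.1 to 70.9 and 75.0 to 80.5 CPM, while Cdkn2b stands apart in siHsf1 LacZ alone, at 64.0 to 74.9 CPM.

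In the LacZ line, siHsf1 was accompanied by lower D-type cyclin transcripts. Ccnd3 (gene ID 12445, chr17:47505051-47599689 of GRCm38, plus strand) encodes cyclin D3 and moved furthest. With spike-in scaling it had 80.2, 48.3 and 60.3 CPM in siHsf1 LacZ, against 240.2, 131.5 and 196.1 CPM in siControl LacZ libraries, which do not overlap. It fell by 1.59 ± 0.33 on the log2 scale (SE, edgeR quasi-likelihood test, adjusted p = 0.000203), to 0.332-fold. With TMM scaling it fell by 1.18 ± 0.07 (edgeR adjusted p = 5.99e-12), with 60.1, 70.9 and 62.7 CPM in siHsf1 LacZ, against 145, 137 and 158 CPM in siControl LacZ libraries. It passed the test in 6 of 6 fits that each left out a library of the comparison, with either scaling. In bulk RNA, fewer cells with a transcript and less of it per cell cannot be told apart.

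Ccnd2 (12444, chr6:127125162-127152188, minus strand), which encodes cyclin D2, had 30.7, 14.99 and 18.7 spike-scaled CPM in siHsf1 LacZ, against 71.9, 35.0 and 58.9 CPM in siControl LacZ libraries. It fell by 1.37 ± 0.33 on the log2 scale (SE, edgeR adjusted p = 0.00214), and by 0.99 ± 0.11 with TMM scaling (edgeR adjusted p = 1.65e-07). The groups did not overlap. Without siHsf1 LacZ replicate 3 the spike-scaled call was lost, at an edgeR adjusted p of 0.0708. Ccnd1 (12443, chr7:144929931-144939937, minus strand), which encodes cyclin D1, had 137.2, 55.6 and 105.1 spike-scaled CPM in siHsf1 LacZ, against 245.9, 128.7 and 190.9 CPM in siControl LacZ libraries, and these overlap. Its difference of -0.93 ± 0.32 did not pass (edgeR adjusted p = 0.0548), whereas with TMM scaling it fell by 0.58 ± 0.09 (edgeR adjusted p = 6.98e-05), with 81.5 to 109 CPM in siHsf1 LacZ and 134 to 154 CPM in siControl LacZ libraries.

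The kinases moved less. Cdk4 (12567, chr10:127063535-127067288, plus strand) had 382, 393 and 369 CPM (TMM) in siHsf1 LacZ, against 449, 501 and 448 CPM in siControl LacZ libraries. All libraries with siHsf1 were lower, and it fell by 0.29 ± 0.06 on the log2 scale with TMM scaling (edgeR adjusted p = 0.000173). With spike-in scaling the value was -0.65 ± 0.32 (edgeR adjusted p = 0.201). Cdk6 (12571, chr5:3343893-3531008, plus strand) had 139, 110 and 141 CPM (TMM) in siHsf1 LacZ, against 151, 120 and 146 CPM in siControl LacZ libraries, which overlap. Its log2 fold change was -0.10 ± 0.10 with TMM scaling (edgeR adjusted p = 0.471) and -0.46 ± 0.32 with spike-in scaling (edgeR adjusted p = 0.39).

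Both E-type cyclin genes, whose proteins activate CDK2 late in G1, were on the low side. Ccne2 (12448, chr4:11190298-11204779, plus strand) had 21.9, 8.10 and 14.1 spike-scaled CPM in siHsf1 LacZ, against 41.7, 19.7 and 26.9 CPM in siControl LacZ libraries, with some overlap. It fell by 1.01 ± 0.33 on the log2 scale (SE, edgeR adjusted p = 0.0384) and by 0.66 ± 0.14 with TMM scaling (edgeR adjusted p = 0.000575). This spike-scaled call rests on single libraries: it was lost without siHsf1 LacZ replicate 2 (edgeR adjusted p = 0.302) or 3 (0.217), and without siControl LacZ replicate 1 (0.408) or 3 (0.101). Ccne1 (12447, chr7:38097984-38107490, minus strand) had 22.3, 22.7 and 30.4 CPM (TMM) in siHsf1 LacZ, against 30.6, 37.6 and 33.2 CPM in siControl LacZ libraries. It fell by 0.43 ± 0.12 with TMM scaling (edgeR adjusted p = 0.00585), and the spike-scaled value was -0.78 ± 0.32 (edgeR adjusted p = 0.122).

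Of the INK4 genes, Cdkn2b and Cdkn2a lay on the other side with TMM scaling. Other INK4 genes did not: with TMM scaling Cdkn2d fell by 0.34 ± 0.13 and Cdkn2c was at 0.09 ± 0.10 on the log2 scale (edgeR adjusted p = 0.0383 and 0.523). With spike-in scaling Cdkn2d was at -0.69 ± 0.32 and was not called (edgeR adjusted p = 0.185). Cdkn2b (12579, chr4:89306289-89311032, minus strand) encodes p15, an inhibitor of CDK4 and CDK6, and had 64.0, 74.9 and 64.6 CPM (TMM) in siHsf1 LacZ, against 29.7, 35.3 and 28.7 CPM in siControl LacZ libraries. It rose 2.17-fold, by 1.12 ± 0.10 on the log2 scale, with TMM scaling (edgeR adjusted p = 2.4e-09). With spike-in scaling the libraries also did not overlap, at 85.5, 51.1 and 62.2 CPM in siHsf1 LacZ against 49.0, 34.0 and 35.5 CPM in siControl LacZ, but the value of 0.75 ± 0.32 did not pass (edgeR adjusted p = 0.136). Cdkn2a (12578, chr4:89274473-89294619, minus strand) is its neighbour, and 1 row of the table holds the transcripts of both p16Ink4a and p19Arf. It had 338, 340 and 342 CPM (TMM) in siHsf1 LacZ, against 229, 275 and 245 CPM in siControl LacZ libraries, and rose 1.36-fold with TMM scaling (log2 0.45 ± 0.07, edgeR adjusted p = 2.17e-05). With spike-in scaling its groups overlapped and its log2 fold change was 0.10 ± 0.32 (edgeR adjusted p = 0.875). Cdkn1b (12576, chr6:134920401-134925525, plus strand) had 20.4 to 27.1 CPM in siHsf1 LacZ and 21.9 to 25.1 CPM in siControl LacZ libraries (TMM), with a log2 fold change of 0.05 ± 0.12 (edgeR adjusted p = 0.77), against -0.27 ± 0.33 with spike-in scaling (edgeR adjusted p = 0.639).

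With spike-in scaling, then, 3 of the 10 genes passed in the LacZ line, all lower (Ccnd3, Ccnd2 and Ccne2), where 7.02% of all tested genes passed, 6.03% lower and 0.993% higher. With TMM scaling 8 of 10 passed, 6 lower and 2 higher, where 40.6% of all genes passed, 19.5% lower and 21.1% higher. The median log2 fold change of the 10 genes was -0.72 with spike-in scaling, beside -0.35 for all genes tested, and -0.36 with TMM scaling, beside 0.02 for all genes. By the size of the log2 fold change with TMM scaling, Ccnd3 was larger than 97.0% of tested genes, Cdkn2b than 96.4% and Ccnd2 than 94.8%, whereas Cdk6 and Cdkn1b were larger than 21.1% and 10.9%. The libraries of siHsf1 and siControl LacZ did not overlap for 8 of the 10 genes with TMM scaling, as for 49.9% of all genes. With spike-in scaling, siHsf1 libraries lay wholly above for 1 gene, Cdkn2b, and wholly below for 3, Ccnd3, Ccnd2 and Ccne1. Of all genes 14.8% did not overlap with that scaling.

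**Figure D2:**
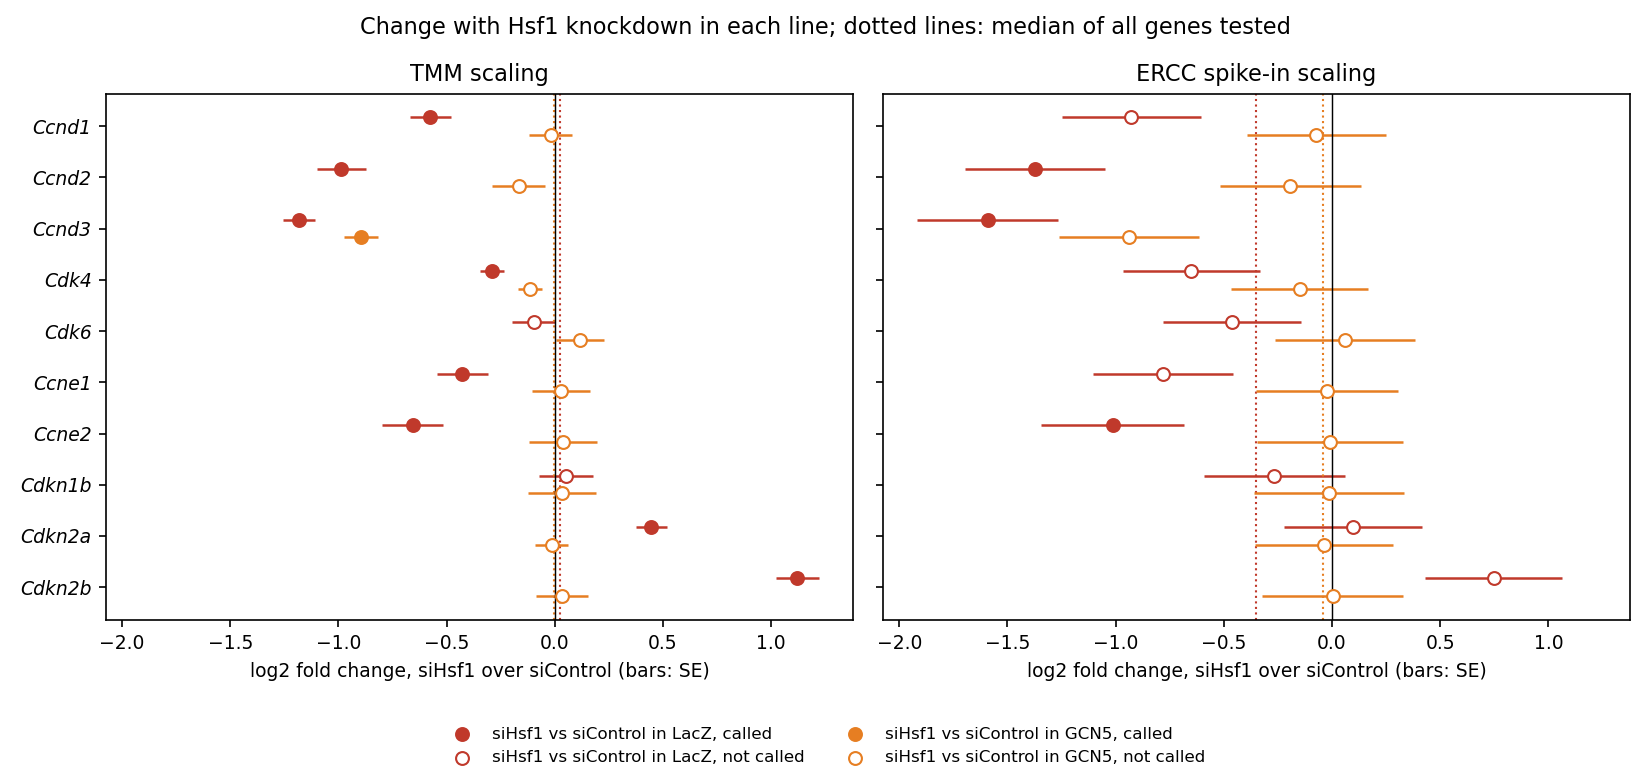
Log2 fold changes (siHsf1 over siControl, bars are SE) of the 10 genes in the LacZ and GCN5 lines, with TMM scaling on the left and spike-in scaling on the right; filled points passed at an adjusted p under 0.05, and dotted lines mark the median of all tested genes. In GCN5 MEFs the points lie near that median except for Ccnd3, at -0.89 with TMM and -0.94 with spike-in scaling.

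In the GCN5 line, siHsf1 left Ccnd3 lower, and the other 9 genes gave no call with either scaling. Ccnd3 had 76.8, 75.0 and 80.5 CPM (TMM) in siHsf1 GCN5, against 149, 146 and 138 CPM in siControl GCN5 libraries, with a wide gap between the groups. It fell to 0.538-fold, by 0.89 ± 0.08 on the log2 scale, with TMM scaling (edgeR adjusted p = 6.75e-07), where 0.164% of all genes passed, 0.0985% lower, and it stayed called in 6 of 6 fits without 1 library. By p-value it ranked 1 of 12187 genes in this comparison, and Hsf1, at -0.88 ± 0.08, ranked 2. With spike-in scaling Ccnd3 also had no overlap, at 78.5, 75.8 and 65.7 CPM in siHsf1 GCN5 against 175.2, 113.8 and 132.7 CPM in siControl GCN5, but its value of -0.94 ± 0.32 did not pass (edgeR adjusted p = 1). With that scaling edgeR called 0 of the 10 genes, with 1 at an unadjusted p under 0.05 and 0 in DESeq2, where edgeR called 0.041% of all genes.

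The other D-type cyclins differed by less than the spread between libraries in GCN5 MEFs. Ccnd1 had 137 to 148 CPM (TMM) in siHsf1 GCN5 and 126 to 158 CPM in siControl GCN5 libraries (log2 -0.02 ± 0.10 SE), and Ccnd2 had 33.8 to 39.9 CPM in siHsf1 GCN5 and 37.0 to 45.9 CPM in siControl GCN5 libraries (-0.17 ± 0.12). Cdk4 had 404 to 412 CPM in siHsf1 GCN5 and 438 to 447 CPM in siControl GCN5 libraries, which do not overlap, yet its -0.11 ± 0.06 did not pass (edgeR adjusted p = 0.529). Cdkn2b, at 28.3 to 33.9 CPM in siHsf1 GCN5 and 29.9 to 33.6 CPM in siControl GCN5, and Cdkn2a, at 224 to 254 CPM in siHsf1 GCN5 and 214 to 261 CPM in siControl GCN5, overlapped fully (log2 0.03 ± 0.12 and -0.01 ± 0.08). Cdk6, Ccne1, Ccne2 and Cdkn1b lay between 0.03 and 0.12 on the log2 scale. Groups did not overlap for 2 of the 10 genes with TMM scaling, Ccnd3 and Cdk4, as for 18.9% of all genes. With spike-in scaling they did not overlap for 1, Ccnd3, as for 3.45% of all genes.

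Whether the response to siHsf1 differed between the lines was tested as an interaction, the log2 fold change in GCN5 minus that in LacZ MEFs. With TMM scaling 5 of the 10 genes passed, where 22% of all genes passed, 11% in each direction. The value was higher in GCN5 MEFs for 3 cyclin genes: Ccnd2 by 0.82 ± 0.17, Ccne2 by 0.69 ± 0.21 and Ccnd1 by 0.56 ± 0.14 (edgeR adjusted p = 0.00079, 0.019 and 0.00642). Both INK4 genes of the 10 had a lower one, Cdkn2b by -1.09 ± 0.16 and Cdkn2a by -0.46 ± 0.10 (edgeR adjusted p = 1.35e-05 and 0.00227). For Ccnd3 the interaction was 0.29 ± 0.11 (edgeR adjusted p = 0.0589), so its fall was not shown to differ between the lines. Ccne1, at 0.46 ± 0.18, Cdk6, at 0.21 ± 0.15, Cdk4, at 0.18 ± 0.08, and Cdkn1b, at -0.02 ± 0.20, did not pass (edgeR adjusted p = 0.0727, 0.339, 0.121 and 0.961). The Ccne2 call was the least stable, past the threshold in 8 of 12 fits without 1 library, against 12 of 12 for the other 4 genes. It missed without siHsf1 LacZ replicate 2 (edgeR adjusted p = 0.0541), siControl LacZ replicate 1 (0.0523), siHsf1 GCN5 replicate 2 (0.065) or siControl GCN5 replicate 2 (0.0602). With spike-in scaling 0 of the 10 genes passed in edgeR (0.394% of all genes did), with 2 at an unadjusted p under 0.05 and 0 in DESeq2; Ccnd2 came nearest at 1.18 ± 0.46 (edgeR adjusted p = 0.392).

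The lines were also compared directly. Under siControl, Cdkn1b had 16.5, 15.4 and 15.2 CPM (TMM) in GCN5, against 22.7, 25.1 and 21.9 CPM in LacZ libraries, without overlap, as for 25.7% of all genes. It was lower in GCN5 MEFs by 0.56 ± 0.14 on the log2 scale with TMM scaling (edgeR adjusted p = 0.0107), the 1 gene of 10 to pass where 9.61% of all genes passed, 4.15% lower. Without siControl GCN5 replicate 3 it missed the threshold (edgeR adjusted p = 0.0504). With spike-in scaling it was at -0.95 ± 0.34 (edgeR adjusted p = 0.176), and edgeR called 0 of the 10 genes (1.5% of all genes), with 2 at an unadjusted p under 0.05 and 0 in DESeq2. Cdkn2b, by contrast, was level between the lines under siControl, with a log2 value of -0.001 ± 0.11 and TMM scaling.

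Under siHsf1, Cdkn2b had 28.3, 33.6 and 33.9 CPM (TMM) in GCN5, against 64.0, 74.9 and 64.6 CPM in LacZ libraries. Its level in GCN5 MEFs was 0.471-fold that in LacZ MEFs with TMM scaling (log2 -1.09 ± 0.11, edgeR adjusted p = 8.95e-09). With spike-in scaling it was 0.456-fold (-1.13 ± 0.32, edgeR adjusted p = 0.0132). Cdkn2b was the 1 gene of 10 called with that scaling, where 5.44% of all genes were, 3.62% lower. This spike-scaled call held in 1 of 6 fits without 1 library, the one without siHsf1 LacZ replicate 2, with edgeR adjusted p between 0.00119 and 0.121. With TMM scaling 7 of 10 genes passed, where 44.8% of all genes passed, 22.2% higher and 22.6% lower. Ccnd2 (0.76 ± 0.12), Ccne2 (0.62 ± 0.15), Ccnd1 (0.52 ± 0.10) and Ccnd3 (0.26 ± 0.08) were higher in GCN5 MEFs, and Cdkn2a (-0.52 ± 0.07) and Cdkn1b (-0.58 ± 0.14) were lower along with Cdkn2b. Ccnd3 missed the threshold without siHsf1 LacZ replicate 1 (edgeR adjusted p = 0.0543). These contrasts share libraries with those above and are not independent of them.

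Levels of different genes are given in the authors' FPKM, which divides by transcript length. Cdk4 and Cdkn2a stood far above the rest in every group. In siHsf1 LacZ, Cdkn2a came first with 291 ± 1.25 FPKM (SD, n = 3) and Cdk4 next with 261 ± 8.54, without overlap. In the other 3 groups Cdk4 came first, with 323 ± 21.5 FPKM in siControl LacZ, 283 ± 3.33 in siHsf1 GCN5 and 306 ± 2.84 in siControl GCN5, and Cdkn2a next, with 216 ± 20.3, 205 ± 12.8 and 207 ± 20.4 FPKM. Cdkn2b was the third gene in siHsf1 LacZ, with 47.4 ± 4.29 FPKM, and the fifth in the other groups, with means of 22.0 to 22.5 FPKM. At the low end Ccne2 and Ccnd2 overlapped in all 4 groups, with means of 3.29 to 6.58 FPKM, and Cdkn1b overlapped its lower neighbour in the 2 GCN5 groups. Cdk6, with means of 10.1 to 11.9 FPKM, lay well under Cdk4 in every group.

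Among the D-type cyclins, Ccnd3 gave the largest share of transcripts in both siControl groups, and Ccnd1 gave it in siHsf1 GCN5. Summed over the 3 genes, D-type cyclins reached 53.0 ± 1.61 FPKM in siHsf1 LacZ and 101.5 ± 7.63 in siControl LacZ, and 71.7 ± 1.33 FPKM in siHsf1 GCN5 and 98.9 ± 4.68 in siControl GCN5 libraries (SD, n = 3 each), with no overlap between siHsf1 and siControl. The share of Ccnd3 in that sum was 42.5 ± 1.92% in siHsf1 GCN5 and 57.3 ± 2.47% in siControl GCN5, and Ccnd1 led in all 3 siHsf1 GCN5 libraries with 48.3 to 51.2%. In siHsf1 LacZ the Ccnd3 share was 44.4, 53.7 and 44.6%, against 56.3, 57.6 and 57.3% in siControl LacZ libraries, and replicate 2 stands apart from the other siHsf1 LacZ libraries. Ccnd2 made up 5.41 to 8.44% over all 12 libraries.

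**Figure D3:**
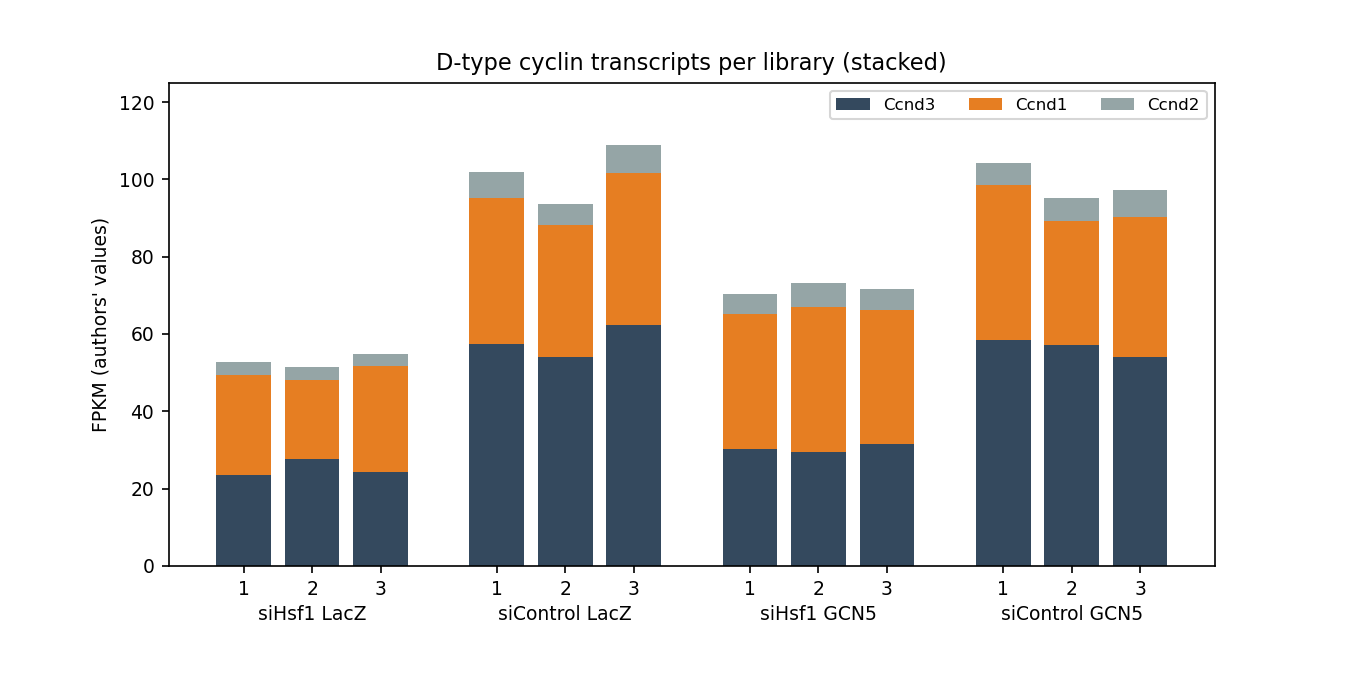
Stacked bars give the authors' FPKM of Ccnd3, Ccnd1 and Ccnd2 in each of the 12 libraries, numbered by replicate within siHsf1 LacZ, siControl LacZ, siHsf1 GCN5 and siControl GCN5. The stacks reach 51.5 to 54.7 FPKM in siHsf1 LacZ and 93.8 to 109 in siControl LacZ, and the Ccnd3 segment is shorter with siHsf1 in both lines.

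Ratios of 2 genes within a library do not depend on the scaling, and 3 pairs were compared in each line, 6 tests in all. With 3 libraries against 3, the exact permutation test (two-sided) cannot give a p under 0.1. Per library, Cdkn2b counts were 0.19, 0.221 and 0.189 of Cdkn2a counts in siHsf1 LacZ, against 0.13, 0.129 and 0.117 in siControl LacZ, a difference of 0.67 on the log2 scale (exact p = 0.1, adjusted p = 0.2). In GCN5 MEFs that difference was 0.04, with overlap. Ccnd2 counts were 0.224, 0.27 and 0.178 of Ccnd1 counts in siHsf1 LacZ, against 0.293, 0.272 and 0.309 in siControl LacZ (log2 difference -0.40, exact p = 0.1, adjusted p = 0.2), and -0.24 without siHsf1 LacZ replicate 3. Cdk6 to Cdk4 differed without overlap in GCN5 MEFs, at 0.326, 0.302 and 0.317 in siHsf1 GCN5 against 0.295, 0.235 and 0.276 in siControl GCN5 (log2 difference 0.23, exact p = 0.1, adjusted p = 0.2). Without siControl GCN5 replicate 2 that difference was 0.14. In LacZ MEFs the log2 difference was 0.19 and the groups overlapped (exact p = 0.5, adjusted p = 0.6).

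Other genes of the G1 pathway, 26 in number, covered retinoblastoma proteins, E2F and DP factors, CDK2 and its activators, ubiquitin ligase parts, further inhibitors and p53 with Mdm2. In LacZ MEFs with spike-in scaling 3 of the 26 fell with siHsf1 and none rose, where 6.03% of all genes fell and 0.993% rose: Cdkn1a, the p21 inhibitor, by 1.71 ± 0.33 on the log2 scale, Tfdp1, a DP partner of E2F, by 1.16 ± 0.32, and Trp53, which encodes p53, by 1.02 ± 0.32 (edgeR adjusted p = 5.34e-05, 0.0113 and 0.0317). With TMM scaling 8 fell, Cdkn1a by 1.29 ± 0.11 and Tfdp1 by 0.79 ± 0.05 among them, and 1 rose, Fbxw7, part of a ligase that marks cyclin E, by 0.37 ± 0.13 (edgeR adjusted p = 3.7e-09, 3.53e-11 and 0.0241). Of all genes 19.5% fell and 21.1% rose with TMM scaling. Ccna2, whose cyclin A acts in S phase, fell by 0.57 ± 0.06, and Cks1b, a CDK-binding protein, by 0.56 ± 0.07 with TMM scaling (edgeR adjusted p = 4.07e-08 and 9.38e-07). With spike-in scaling Ccna2, at -0.92 ± 0.32, and Cks1b, at -0.91 ± 0.32, were not called (edgeR adjusted p = 0.0534 and 0.0605). The median of the 26 genes was -0.44 with spike-in scaling, beside -0.35 for all genes, and -0.07 with TMM scaling, beside 0.02. In GCN5 MEFs edgeR called 0 of the 26 with either scaling, with 0 (spike-in) and 2 (TMM) at an unadjusted p under 0.05 and 0 in DESeq2. The interaction was called for 7 of the 26 with TMM scaling, all higher in GCN5 MEFs, where 22% of all genes were called and 11% were higher, led by Tfdp1 at 0.83 ± 0.08 and Cdkn1a at 1.29 ± 0.16 (edgeR adjusted p = 2.93e-08 and 4.7e-06). With spike-in scaling edgeR called it for 0 of the 26 (0.394% of all genes), with 5 at an unadjusted p under 0.05 and 1 in DESeq2. Cdkn1a was then at 1.67 ± 0.46 and Tfdp1 at 1.17 ± 0.45 (edgeR adjusted p = 0.0595 and 0.386). Cdkn1c, the p57 inhibitor, was lower in GCN5 than in LacZ MEFs under both siRNAs with TMM scaling, with a log2 difference of -1.62 ± 0.26 under siHsf1 and -1.12 ± 0.27 under siControl (edgeR adjusted p = 2.22e-05 and 0.00753). Its interaction of -0.50 ± 0.39 was not called (edgeR adjusted p = 0.395). Myc, which encodes the factor mapped by CUT&RUN, had 99.4, 89.4 and 88.1 CPM (TMM) in siHsf1 LacZ, against 130.3, 142 and 147 CPM in siControl LacZ libraries (fell by 0.60 ± 0.08, edgeR adjusted p = 7.17e-07), and was not called with siHsf1 in GCN5 MEFs (0.28 ± 0.08, edgeR adjusted p = 0.235).

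Patterns over the 12 libraries were compared by Pearson's r of log2 CPM (TMM) with 10640 other genes, as a description, since all points share libraries and group differences. Closest to Ccnd2 were Ccnf (r = 0.984), Rcc2 (0.971) and Eef2 (0.965). Closest to Ccnd1 were Ect2 (0.974), Sh3bgrl2 (0.964) and Racgap1 (0.962), and closest to Cdk4 were Gm2000 (0.978), Dnph1 (0.976) and Rpl19 (0.973).

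Some of these genes overlap others, and whether the counting used strand is not given in the sources used here, so that reads of overlapping genes may be shared. Bysl lies on the opposite strand and covers 359 bases of Ccnd3. It fell by 0.81 ± 0.09 with siHsf1 in LacZ MEFs with TMM scaling (edgeR adjusted p = 1.14e-07), and had a log2 value of -0.10 ± 0.10 in GCN5 MEFs (edgeR adjusted p = 0.766), where Ccnd3 fell by 0.89. Gm12610 runs antisense across Cdkn2b and had 282 counts over all libraries, against 3100 for Cdkn2b. Ints8 overlaps Ccne2 by 5622 bases with 4647 counts against 1370, and was at -0.15 ± 0.08 with siHsf1 in LacZ MEFs with TMM scaling (edgeR adjusted p = 0.125), which leaves the origin of reads in the shared bases of Ccne2 unknown. Oraov1 overlaps Ccnd1 by 1216 bases with 842 counts against 9035. With siHsf1 in LacZ MEFs Oraov1 rose by 0.412 ± 0.154 with TMM scaling (edgeR adjusted p = 0.0346), where Ccnd1 fell. Its spike-scaled value was 0.035 ± 0.345 (edgeR adjusted p = 0.961).

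c-MYC peaks were then looked up at the starts of these genes, a peak being counted when it lay within 1000 bases of an annotated start. The CKO list holds 6386 peaks over 11.5 Mb and the WT list 220037 peaks over 509.9 Mb, so that a start meets a WT peak far more often. A CKO peak lay at the starts of 6 of the 10 genes, where 37.1% of all tested genes had one, and a WT peak at the starts of 7, where 79.8% had one. The same 6 genes had a peak in both lists (36.1% of all genes): Ccnd1, Ccnd3, Cdk4, Cdk6, Ccne2 and Cdkn2a. Cdkn1b had a WT peak, and Ccnd2, Ccne1 and Cdkn2b had none in either list (19.2% of all genes had none). The nearest WT peak to Ccnd2 began 1078 bases downstream of its start, just outside the window. Of the 8 genes called with siHsf1 in LacZ MEFs with TMM scaling, Ccnd1, Ccnd3, Cdk4, Ccne2 and Cdkn2a had peaks in both lists and Ccnd2, Ccne1 and Cdkn2b in neither.

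The lists give each peak the authors' signal, and each list's maxima are whole multiples (within 0.02 of a step) of one value, 0.000361 in CKO and 0.000684 in WT, so heights are given in these steps. There is 1 list per genotype and no test. A step has a different value in each list, so steps in CKO and WT are not on a common scale. Over 4391 tested genes with a peak in both lists, the median CKO to WT ratio was 0.527 in the authors' signal and 0.999 in steps. Over the 6 genes here it was 0.416 in signal and 0.788 in steps. That median includes Ccnd1, which had the lowest ratio of them, 0.324 in signal and 0.615 in steps. At Cdk6 the ratio was 0.575 in signal and 1.09 in steps. The maximum was 19 steps in CKO and 23 in WT at Ccne2, 12 in CKO and 15 in WT at Cdk4, and 12 in CKO and 11 in WT at Cdk6. It was 9 in CKO and 13 in WT at Ccnd3, and 7 in CKO and 9 in WT at Cdkn2a. At Ccnd1 the lists divide the region differently: the CKO list has a peak of 8 steps over the start and another of 20 steps that begins 1144 bases upstream, whereas 1 wide WT peak of 13 steps spans both places and has its maximum at -1580 bases from the start (upstream). The Ccnd1 heights at the start are therefore not comparable between the lists, and the median over the 6 genes carries that limit. The WT maximum at Ccne2 exceeded that of 96.1% of tested genes with a WT peak, and the CKO maximum at Cdkn2a exceeded that of 5.02% of those with a CKO peak. In both lists the Cdk4 peak, chr10:127062653-127064226 in CKO and chr10:127062787-127066150 in WT, spans all 4 E-boxes printed above. Its maximum was centred 233 bases (CKO) and 134 bases (WT) downstream of the start, whereas the E-boxes lie upstream of the start. At Cdk6 the maximum was centred at -1175 bases (CKO) and -1316 bases (WT) from the start, upstream of its E-box at -220.

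At genes with 2 widely spaced starts the lists differed by start. At Ccnd3 the downstream start, chr17 base 47593467, had a peak in both lists. The upstream start, base 47505051, had a peak within 1000 bases in the WT list only. Outside that window, a CKO peak of 27 steps ended 1882 bases upstream of base 47505051. A WT peak of 23 steps ended 1896 bases upstream of it. At Cdkn2a the downstream start, chr4 base 89282192, had a peak in both lists, with 7 steps in CKO and 9 in WT, and the upstream start, base 89294619, had a peak in the WT list only. Transcripts from the upstream Cdkn2a start encode p19Arf and those from the downstream start p16Ink4a, and the count table does not separate them. With only the 5' end of each gene counted, 4 genes had a CKO peak and 7 a WT peak.

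**Figure D4:**
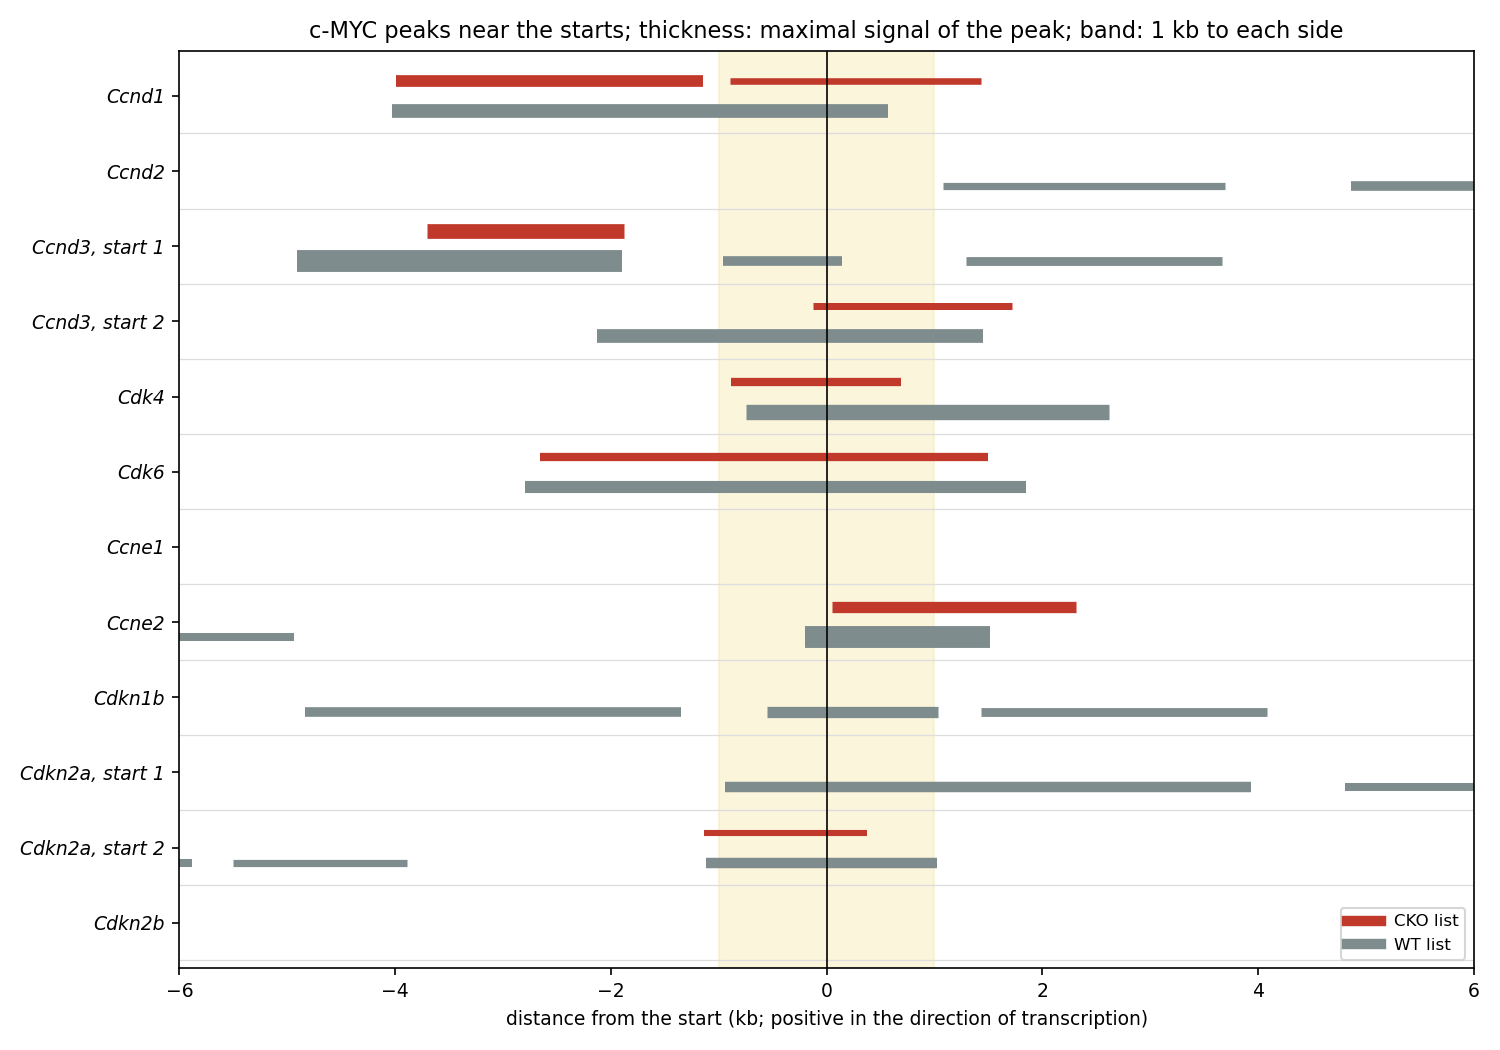
Peaks of the CKO and WT lists around the starts of the 10 genes, with distance from the start in kb on the x axis (positive in the direction of transcription) and the maximal signal as line thickness; the band marks 1 kb to each side. Ccnd1, Cdk4, Cdk6, Ccne2 and the downstream starts of Ccnd3 and Cdkn2a carry both lists' peaks, and Ccne1 and Cdkn2b carry none.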

How the data were processed

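The authors deposited whole-number counts per gene for 12 RNA libraries, with 92 ERCC transcripts, and FPKM per gene in a second table. Per the submitters' processing notes the tools were HISAT2, DESeq2, Bowtie2 and SEACR on GRCm38 or mm10; the notes used here name neither versions nor the counting program. The deposited lists of c-MYC peaks against IgG give each peak's summed signal and, as a score, its maximal signal. Whether replicates were pooled is not stated.

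Counts were tested with edgeR 4.0.16 in R 4.3.3 (robust quasi-likelihood, 4 group means, 8 residual degrees of freedom, filterByExpr with a minimum count of 10, Benjamini-Hochberg over 12187 genes, calls under 0.05, two-sided). Library sizes were sums of 23 ERCC subgroup B transcripts, listed from memory, with TMM beside them. Per the labels, mix 1 went to siControl and mix 2 to siHsf1 samples, but the subgroup A to B ratio was 1.36 to 1.54 in all libraries. Ratios were tested with exact permutation tests in scipy 1.17.1. DESeq2 1.42.0 was an alternative. Fits were tested on simulated data with a biological coefficient of variation of 0.089 and spike-in sums free of error. That test does not cover the spread seen with spike-in scaling, 0.274. The detection floor (3 counts, counting error only) was 0.368 to 0.812 CPM. The rule for named genes takes all 10 genes, Hsf1, Kat2a, Myc and up to 6 called pathway genes per comparison. It also takes 3 alike genes each for Ccnd1, Ccnd2 and Cdk4. Overlapping genes, Cdkn2c and Cdkn2d were added after their values were seen. Members and lists were chosen with earlier results of these data known. The labels do not say whether replicate numbers pair the libraries, and the main fits did not pair them.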

Additional observations from a re-analysis of the deposited data

Results flagged for a closer look

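With TMM scaling, the response to siHsf1 differed between the GCN5 and LacZ lines for 5 of the 10 genes, by the interaction test of edgeR itself. The log2 difference, GCN5 minus LacZ, was 0.82 for Ccnd2, 0.69 for Ccne2 and 0.56 for Ccnd1, and -1.09 for Cdkn2b and -0.46 for Cdkn2a. With spike-in scaling the values for these genes were 1.18, 1.00 and 0.85, and -0.74 and -0.14, and edgeR called 0 of them, with Ccnd2 and Ccne2 at an unadjusted p under 0.05. Hsf1 itself fell by 0.88 in the GCN5 line and by 1.28 in the LacZ line with TMM scaling (interaction 0.41, edgeR adjusted p = 0.0106), and the part of that difference in these results was not tested.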

How the results depend on the processing

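In siHsf1 against siControl LacZ, 3 genes passed with spike-in scaling. TMM scaling gave 8, DESeq2 size factors 8, the replicate block 7 (Ccnd1, Cdk4, Ccne1 and Cdkn2b beside those 3), the block with TMM scaling 8 and a fit of the compared groups alone 1, and leaving out 1 library gave 1 to 6 (6 without siHsf1 LacZ replicate 1, 1 without replicate 3). In GCN5 MEFs these 4 scaling and block alternatives each gave 1, against 0, and leaving out a library gave 0. For GCN5 against LacZ under siControl, TMM and DESeq2 factors gave 1 and both block fits 2, against 0. With TMM scaling, leaving out a library there gave 0 to 2 (2 without siControl LacZ replicate 2, 0 without siControl GCN5 replicate 3). Under siHsf1, TMM, DESeq2 factors and the block with TMM gave 7 and the block alone 2, against 1, and leaving out a library gave 0 to 2 (2 without siHsf1 LacZ replicate 2, 0 without siHsf1 LacZ replicate 3 or any siHsf1 GCN5 library). For the interaction TMM gave 5, DESeq2 factors 6, the block 3 and the block with TMM 5, against 0, and leaving out a library gave 0 or 1. Whether replicate numbers pair the libraries is not in the labels. Over 18 same-numbered pairs the correlation of deviations across genes ran from -0.06 to 0.10, and 9 of 12 libraries correlated best with their own number. Such a correlation cannot show a shift of whole libraries that same-numbered libraries share. The ERCC subgroup B share was lowest in replicate 1 and highest in replicate 2 in all groups but siHsf1 GCN5. It ran from 0.177% to 0.356% in siHsf1 LacZ, 0.142% to 0.239% in siControl LacZ and 0.197% to 0.296% in siControl GCN5. In siHsf1 GCN5 replicate 3 was highest, at 0.286%. This is a hint from the data only. Over all genes, calls with TMM against spike-in scaling numbered 4944 against 856, 20 against 5, 1171 against 183, 5464 against 663 and 2677 against 48, in the order above. The median of all genes with spike-in scaling was -0.35, -0.04, -0.40, -0.07 and 0.32. The cause was not tested. The log2 difference of the Cdkn2b to Cdkn2a count ratio in GCN5 MEFs, 0.04, was -0.0068 to 0.0915 on leaving out a library, the lower value without siHsf1 GCN5 replicate 2. Peak counts stayed within 4 to 6 (CKO) and 7 to 8 (WT). The GCN5 libraries hold 3.69 to 4.27 M counts, against 7.22 to 8.16 M in LacZ, which limits the precision of low genes such as Cdkn1b there.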
